A study of Mus musculus with 6 samples.

Results

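The 10 genes described here are Eph receptors and ephrins of the crypt: the receptors Ephb2, Ephb3, Ephb4, Ephb6, Epha2 and Epha4 and the ligands Efnb1, Efnb2, Efna1 and Efna4. They were chosen by symbol from a table of 21397 genes, and all 10 had a row in it. RNA had been sequenced from mouse small intestinal organoids, epithelial structures grown in culture from intestinal crypts, in 3 libraries with MMK-1 and 3 with vehicle. MMK-1 is a synthetic peptide agonist of formyl peptide receptor 2 (FPR2), and the comparison asks how the RNA of these genes differed between organoids exposed to it and organoids that were not. Both groups were derived from Fpr2f/f mice, whose Fpr2 gene is floxed, and no Cre is named for them. Both groups received 0.1% DMSO, the treated organoids 1 μM MMK-1 as well, and both were collected at day 5. The treatment label of the MMK-1 libraries gives this dose in mM, whereas the protocol text gives μM. Each library pooled organoids from several adult mice. Which mice contributed to which library is not given in the sources used here, so p-values measure the spread between these libraries, part of which may be technical.

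Eph receptors are receptor tyrosine kinases, and their ligands, the ephrins, stay attached to the surface of the cell that makes them. When 2 cells touch, a forward signal enters the cell with the receptor and a reverse signal enters the cell with the ephrin, often with repulsion of the 2 cells as the outcome. In the small intestine, EphB2 and EphB3 are known target genes of β-catenin and TCF that are highest near the crypt base, ephrin-B1 and ephrin-B2 are higher towards the villus, and the opposed gradients keep proliferating cells and Paneth cells in position.

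The libraries held between 35512739 and 37537463 fragments. The first principal component held 92.4% of the variance and separated the groups. MMK-1 replicate 3 stood apart within its group: set against the others of the group by a chi-square of fragments over genes, it gave 45.2 and 38.6 per degree of freedom, where those 2 gave 3.84 with each other and pairs of controls 2.90 to 5.59. Of the 10 members, 8 were highest in MMK-1 replicate 3 among the MMK-1 libraries, and values without it are given where they matter. The 6 markers of epithelium summed to between 2362 and 2383 FPKM in controls and between 1716 and 1867 with MMK-1. The 8 markers of fibroblasts and smooth muscle stayed at or below 0.165 FPKM in sum, led by Col1a1, and the 6 leukocyte markers in the table at or below 1.04 FPKM, led by Lyz2. FPKM is the number of fragments on a gene scaled for the length of the gene and for the depth of the library.

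Of the 10 members, 8 reached a mean of 1 FPKM over the libraries and were tested, and Epha4 and Ephb6 stayed below it. With MMK-1, 6 of the 8 rose and 1 fell at an adjusted p up to 0.05 (limma on log2(FPKM + 1), Benjamini-Hochberg), beside 48.5% of all 10551 genes tested that rose and 24.7% that fell. The 6 that rose were Ephb2, Ephb3, Ephb4, Epha2, Efna1 and Efna4, the 1 that fell was Efnb2, and Efnb1 did not pass. Ephb3, Ephb4 and Efna4 also rose at least 2-fold on that scale with an unadjusted p under 0.05, as did 3.39% of all genes, and 0 of the 8 fell as far, beside 3.65%. This number depended on the scale: with a pseudocount of 0.1 it was 5, with Ephb2 and Epha2 added, beside 6.41% of all genes, and with limma-voom it was also 5, beside 6.89%. With low genes included, in fits chosen after seeing the data, it was 6 of 10 with a pseudocount of 0.1, beside 5.31%. With limma-voom it was 6, beside 10.9%, in a fit that Ephb6 did not enter. On the log2(FPKM + 1) scale with every gene above 0 it stayed at 3. Since 73.2% of all genes passed in 1 direction or the other, the sizes of the differences say more about these genes than the number called. With upper-quartile scaling, which sets the same upper quartile of the tested genes in every library, 6 rose and 2 fell, beside 41.7% and 31.2% of all genes. A correction for GC content gave the same 2 numbers, beside 39.8% and 34.2%. Ephb3 had a control mean below 1 FPKM and was tested because of its level with MMK-1, so it had to differ in order to enter the test. The same 6 and 1 genes passed in the 6 fits that each left out 1 library.

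**Figure D1:**
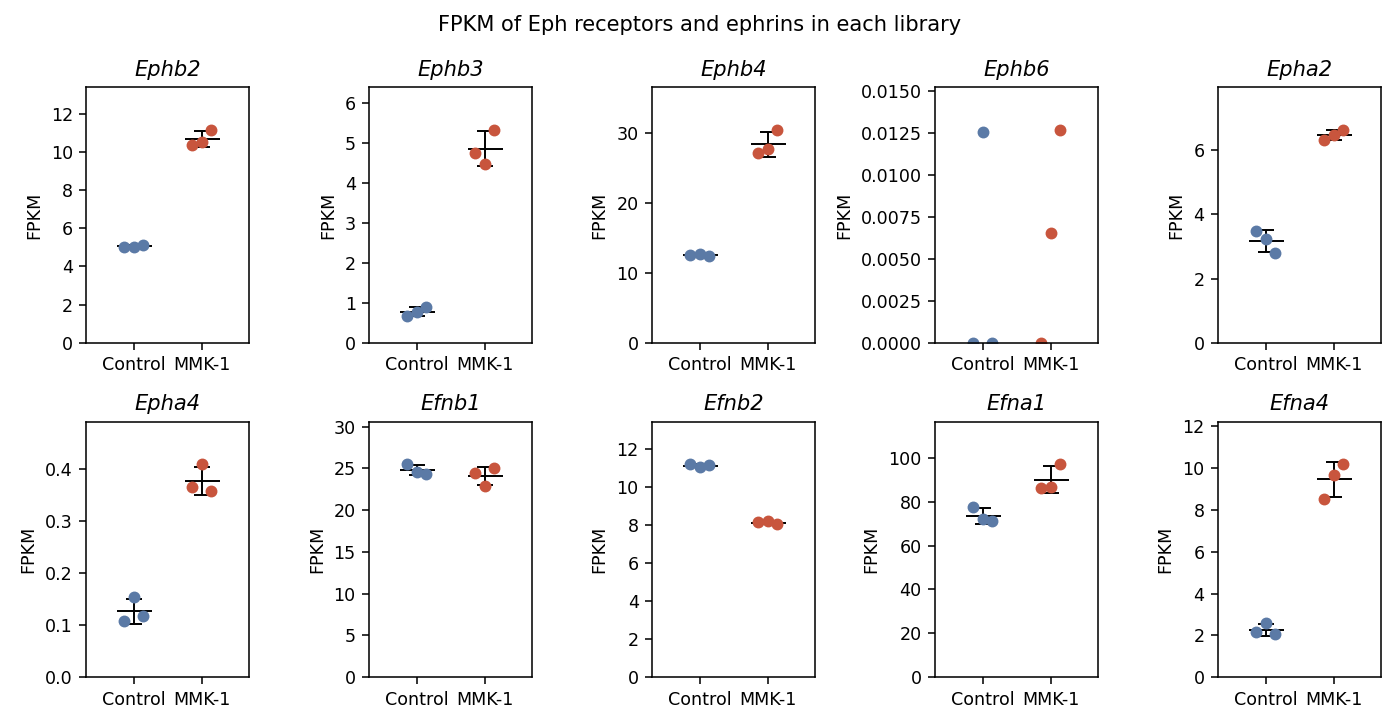
FPKM of the 10 members in each library (y axis, linear from 0, own scale per panel), with controls on the left and MMK-1 on the right of each panel. Points are libraries, and bars are the mean and SD of the 3 libraries, except for Ephb6, which is shown by library only. The groups do not overlap in 8 panels and overlap for Efnb1 and Ephb6.

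The EphB receptors were the class with the largest rise in summed FPKM. The 4 together went from 18.4 ± 0.125 FPKM in controls (SD, n = 3) to 44.0 ± 2.60 with MMK-1 (SD, n = 3), a ratio of 2.40. Ephb3 rose most by ratio of means, Ephb4 rose most in FPKM and carried most of the sum in both groups, and Ephb6 was almost not detected.

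Ephb2 (NCBI gene 13844, GRCm38 chr4:136647536-136836326, minus strand) encodes the receptor best known for graded expression along the crypt. Its FPKM was 5.00, 5.03 and 5.11 in controls and 10.4, 10.5 and 11.2 with MMK-1. Every MMK-1 library lay above every control, and the gap was many times the spread within either group. The means of 5.05 ± 0.0560 and 10.7 ± 0.415 (SD, n = 3 each) gave a ratio of 2.12. On the log2(FPKM + 1) scale the difference was 0.95 with an SE of 0.0467 and an adjusted p of 3.7e-07 (limma).

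Ephb3 (NCBI gene 13845, chr16:21204620-21223309, plus strand) encodes the partner of EphB2 in the crypt, known for its part in holding Paneth cells at the crypt base. The controls held 105, 119 and 138 of its fragments and the MMK-1 libraries 703, 670 and 823. In FPKM the controls were at 0.674, 0.762 and 0.887 and the MMK-1 libraries at 4.76, 4.48 and 5.33. The groups were far apart, with every control below 1 FPKM and every MMK-1 library above 4. The means of 0.774 ± 0.107 and 4.86 ± 0.430 (SD, n = 3 each) gave a ratio of 6.27, the largest of the 10 members. On the log2(FPKM + 1) scale, which understates the change of a gene this low, the difference was 1.72 with an SE of 0.0738 and an adjusted p of 1.7e-07 (limma), with the limit given above that Ephb3 entered the test through its level with MMK-1. In the fit over every gene above 0 in at least 1 library, which has no such filter, the adjusted p was 3.7e-05 (limma). Ephb3 was at 0.153 ± 0.0195 of the FPKM of Ephb2 in controls and at 0.454 ± 0.0262 with MMK-1 (SD, n = 3 each), so the 2 receptors did not move in proportion. Its share of the summed EphB FPKM went from 4.22% ± 0.570 to 11.0% ± 0.476 (SD, n = 3 each).

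Ephb4 (NCBI gene 13846, chr5:137350109-137374522, plus strand) encodes the receptor of ephrin-B2, a pair best known from arteries and veins. Its FPKM was 12.6, 12.7 and 12.4 in controls and 27.1, 27.8 and 30.5 with MMK-1. All MMK-1 libraries were above all controls, and MMK-1 replicate 3 was the highest. The means of 12.5 ± 0.137 and 28.4 ± 1.79 (SD, n = 3 each) gave a ratio of 2.27. The difference on the log2(FPKM + 1) scale was 1.12 with an SE of 0.0513 and an adjusted p of 2.4e-07 (limma), and 1.07 without MMK-1 replicate 3. Ephb4 made up 68.3% ± 0.780 of the summed EphB FPKM in controls and 64.6% ± 0.410 with MMK-1 (SD, n = 3 each). Markers of endothelium, where Ephb4 is also known to be expressed, were close to 0: the 5 in the table summed to between 0.106 and 0.221 FPKM in controls and between 0.127 and 0.314 with MMK-1, Pecam1 was the highest, and Kdr was listed at 0 in every library. Of its exonic bases, 33 (0.711%) are shared with Zan on the opposite strand.

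Ephb6 (NCBI gene 13848, chr6:41603834-41620509, plus strand) encodes a receptor without kinase activity. The controls held 0, 2 and 0 of its fragments and the MMK-1 libraries 0, 1 and 2. These counts lie within the 3 fragments that a count of 0 allows, so no level or difference was detectable at this depth.

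Of the EphA receptors, both members were higher with MMK-1 in every library. Epha2 (NCBI gene 13836, chr4:141301221-141329384, plus strand) encodes a receptor of epithelial cell contacts that binds ephrin-A1. Its FPKM was 3.48, 3.22 and 2.80 in controls and 6.32, 6.46 and 6.63 with MMK-1. The lowest MMK-1 library was well above the highest control. The means of 3.17 ± 0.344 and 6.47 ± 0.159 (SD, n = 3 each) gave a ratio of 2.04. The difference on the log2(FPKM + 1) scale was 0.85 with an SE of 0.0666 and an adjusted p of 6.1e-06 (limma).

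Epha4 (NCBI gene 13838, chr1:77367182-77515107, minus strand) encodes a receptor that binds ephrins of both classes. Its fragments numbered 26, 37 and 28 in the controls and 83, 94 and 85 in the MMK-1 libraries, or 0.127 ± 0.0242 and 0.377 ± 0.0277 FPKM (SD, n = 3 each), a ratio of 2.98. The groups did not overlap, but the gene stayed below the filter of 1 FPKM and has no value from the test above. In the fit over every gene above 0 it was higher by 0.29 on the log2(FPKM + 1) scale with an adjusted p of 2.8e-04 (limma), and 28.1% of the genes in that fit were called higher. The size depended on the scale: with a pseudocount of 0.1 in the same fit the difference was 1.08 with an adjusted p of 0.00104 (limma), an alternative chosen after seeing the data. In a limma-voom fit on fragments of 15917 genes, also chosen after seeing the data, it was higher by 1.57 on the log2 scale with an SE of 0.243 and an adjusted p of 1.3e-04, and 39% of the genes in that fit were called higher.

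The ephrin-B ligands did not rise. Their summed FPKM was 36.0 ± 0.630 in controls and 32.3 ± 1.01 with MMK-1 (SD, n = 3 each), a ratio of 0.897. Efnb1 (NCBI gene 13641, chrX:99136061-99149022, plus strand) encodes ephrin-B1. Its FPKM was 25.5, 24.6 and 24.3 in controls and 24.4, 22.9 and 25.0 with MMK-1. The groups overlapped, with the highest library among controls and the lowest among MMK-1. The difference on the log2(FPKM + 1) scale was -0.04 with a 95% interval from -0.15 to 0.07 and an adjusted p of 0.461 (limma). The interval leaves room for a small change in either direction. Scaling each library by its upper quartile gave -0.12 with an adjusted p of 0.0305, which is past the threshold, so a call for Efnb1 depends on how libraries are scaled.

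Efnb2 (NCBI gene 13642, chr8:8617235-8661242, minus strand) encodes ephrin-B2 and was the only member that fell. Its FPKM was 11.2, 11.1 and 11.2 in controls and 8.17, 8.22 and 8.05 with MMK-1. The libraries of each group were nearly level, and all MMK-1 libraries were below all controls. Between the means of 11.2 ± 0.0629 and 8.15 ± 0.0872 (SD, n = 3 each), the level fell by 26.9%. The difference on the log2(FPKM + 1) scale was -0.41 with an SE of 0.0409 and an adjusted p of 2.6e-05 (limma), and -0.48 with upper-quartile scaling.

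The ephrin-A ligands rose unequally. Efna1 (NCBI gene 13636, chr3:89271730-89280951, minus strand) encodes ephrin-A1, a ligand of EphA2, and had the highest FPKM of the 10 members in every library. It was at 77.7, 71.9 and 71.1 FPKM in controls and at 86.4, 86.5 and 96.9 with MMK-1. The groups did not overlap, but the gap between the highest control and the lowest MMK-1 library was small. It was only slightly larger than the spread within the control group and smaller than the spread within the MMK-1 group. The means of 73.6 ± 3.59 and 89.9 ± 6.06 (SD, n = 3 each) gave a ratio of 1.22. The difference on the log2(FPKM + 1) scale was 0.29 with an SE of 0.0575 and an adjusted p of 0.00184 (limma), and 0.23 without MMK-1 replicate 3. The median of all genes tested was 0.13 on that scale and 0.06 with upper-quartile scaling, which gave 0.20 for Efna1 with an adjusted p of 0.00773. The difference of Efna1 was at the 64.8th percentile of all genes tested.

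Efna4 (NCBI gene 13639, chr3:89333393-89338028, minus strand) encodes ephrin-A4 and lies 52441 bases from Efna1. Its fragments numbered 129, 154 and 123 in the controls and 484, 555 and 603 in the MMK-1 libraries. In FPKM the controls were at 2.16, 2.57 and 2.06 and the MMK-1 libraries at 8.54, 9.68 and 10.2. All MMK-1 libraries were more than 3 times the highest control. The means of 2.26 ± 0.270 and 9.46 ± 0.837 (SD, n = 3 each) gave a ratio of 4.18. The difference on the log2(FPKM + 1) scale was 1.68 with an SE of 0.0793 and an adjusted p of 2.9e-07 (limma). Of its exonic bases, 168 (10.5%) are shared with the transcript 4731419I09Rik on the opposite strand, and whether fragments were counted by strand is not given in the sources used here. Efna4 was at 0.0308 ± 0.00428 of the FPKM of Efna1 in controls and at 0.105 ± 0.00656 with MMK-1 (SD, n = 3 each).

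**Figure D2:**
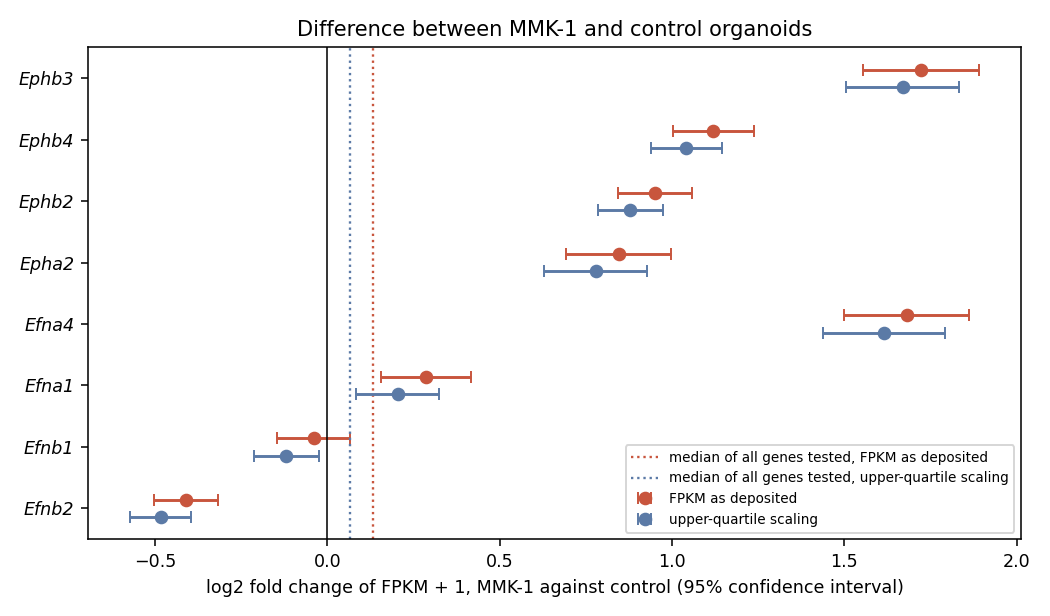
Difference of log2(FPKM + 1) between MMK-1 and control for the 8 tested members (x axis), on the FPKM as deposited (red) and after upper-quartile scaling (blue). Bars are 95% intervals of the fit and dotted lines the medians of all genes tested. On the deposited values, Ephb3 and Efna4 lie farthest to the right at 1.72 and 1.68, Efnb2 lies left of 0 at -0.41, and the interval of Efnb1 spans 0.

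For each of the 8 members whose groups did not overlap, 7 higher and 1 lower with MMK-1, the exact two-sided permutation test gave a p of 0.1, the smallest that 3 libraries against 3 allow. Groups that did not overlap were found in 50.5% of all genes tested on the higher side and 26.3% on the lower side. In bulk RNA, fewer cells of a type and less RNA per cell cannot be told apart, and this holds for each difference given here. Markers of cell types moved between the same groups: the 6 stem cell markers, led by Olfm4, summed to 68.0 to 69.8 FPKM in controls and 386 to 414 with MMK-1, and all 6 rose. The 5 Paneth cell markers in the table, led by Itln1, summed to 178 to 189 and 689 to 738 FPKM, and all 5 rose. The 8 enterocyte markers, led by Sis, summed to 6115 to 6151 and 2561 to 2658 FPKM, and all 7 that were tested fell. The other, Ada, was below the filter and went from 0.281 to 1.09 FPKM. Goblet cell markers, led by Tff3, summed to 1053 to 1108 and 1304 to 1422 FPKM, with 5 of 6 higher and 1 lower. Enteroendocrine markers, led by Chgb, summed to 251 to 266 and 314 to 338 FPKM, with 3 of 6 higher. Tuft cell markers, led by Avil, summed to 1.28 to 1.50 and 1.37 to 1.73 FPKM, and none reached the filter. Of the epithelial markers, led by Krt8, 2 rose and 3 fell, and of the neuronal and glial markers, Ret alone was tested and fell, with a sum of 6.05 to 6.21 FPKM in controls and 3.41 to 3.48 with MMK-1. The part of these cell types in the differences of the Eph and ephrin genes was not tested.

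The order of the members by FPKM changed with MMK-1. In controls it was Efna1, Efnb1, Ephb4, Efnb2, Ephb2, Epha2, Efna4, Ephb3, Epha4 and Ephb6, from highest to lowest. With MMK-1 it was Efna1, Ephb4, Efnb1, Ephb2, Efna4, Efnb2, Epha2, Ephb3, Epha4 and Ephb6. No 2 neighbours in either order overlapped between libraries, but in both groups some gaps were smaller than the spread within a gene. In controls the lowest library of Epha2 was at 2.80 FPKM and the highest of Efna4 at 2.57. With MMK-1 the lowest library of Ephb2 was at 10.4 FPKM and the highest of Efna4 at 10.2. The lowest of Efna4 there was at 8.54 and the highest of Efnb2 at 8.22. FPKM divides by a gene length, and the lengths implied by the table ran from 1596 bases for Efna4 to 11063 bases for Ephb2, so the order between genes also rests on the gene models that were used.

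Ratios of receptor to ligand within a library do not depend on the scaling between libraries. Ephb2 and Ephb3 together were at 0.155, 0.162 and 0.169 of the FPKM of Efnb1 and Efnb2 together in controls, and at 0.465, 0.482 and 0.498 with MMK-1. The ratio was thus below 0.2 in every control and above 0.4 in every MMK-1 library, and the group means of 0.162 ± 0.00711 and 0.482 ± 0.0166 (SD, n = 3 each) differed 2.97-fold. Because the ligands were level or lower, most of that difference came from the receptor side of the ratio. Ephb4 over Efnb2 went from 1.12 ± 0.0166 to 3.49 ± 0.255 (SD, n = 3 each), and Epha2 over Efna1 from 0.0430 ± 0.00313 to 0.0721 ± 0.00327 (SD, n = 3 each). Within the ephrin-B ligands, Efnb2 over Efnb1 went from 0.450 ± 0.00927 to 0.338 ± 0.0188 (SD, n = 3 each). These ratios are descriptions of RNA levels and were not tested.

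**Figure D3:**
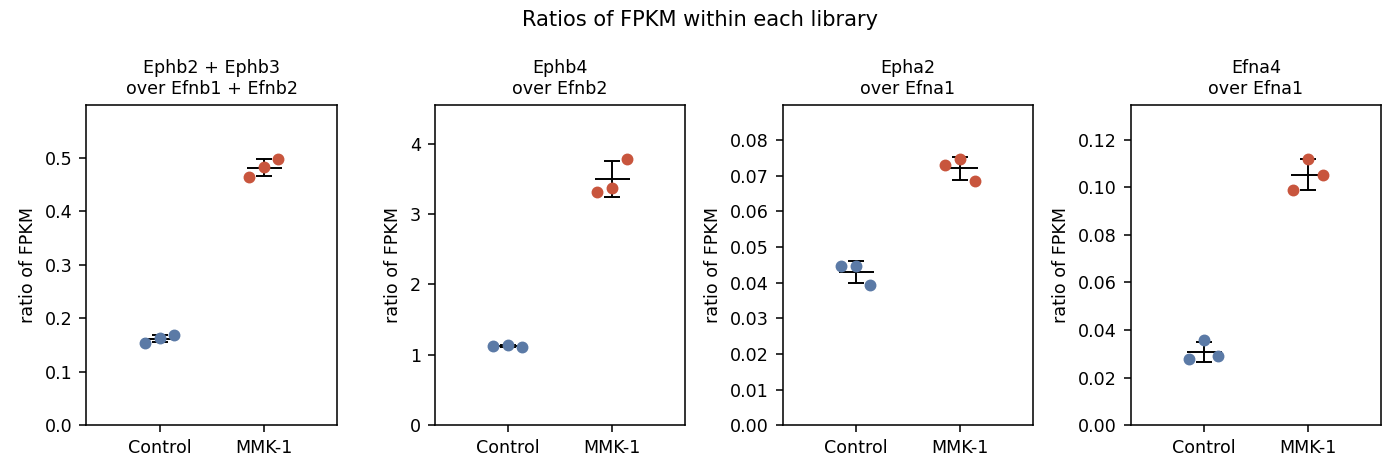
Ratios of FPKM within each library (y axis, linear from 0, own scale per panel) for 3 receptor and ligand pairs and for Efna4 over Efna1, with controls on the left and MMK-1 on the right. Points are libraries and bars the mean and SD of 3. The groups do not overlap in any panel, and the ratio of Ephb2 and Ephb3 to Efnb1 and Efnb2 moves from a mean of 0.162 to 0.482.

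Promoter sequence was compared because 5 of the tested members had ratios of means above 2 and EphB genes are known targets of TCF. The core of the TCF motif was searched as CTTTGA and its reverse complement TCAAAG, on both strands, in the 250 bases before each RefSeq start site (GRCm38.p6). It was found in 1 of 11 windows of the 10 members and in 13.8% of 32851 windows of all genes. The match was in Epha2, 209 bases before the start site, and is a match of letters, not a known site. The 250 bases are given 5′ to 3′ on the strand of the gene for 3 of these 5, Epha2 (chr4:141300971-141301220, plus strand), Ephb4 (chr5:137349859-137350108, plus strand) and Efna4 (chr3:89338029-89338278, minus strand), and for Efnb2 (chr8:8661243-8661492, minus strand), which fell. Capitals mark the motif.
Epha2: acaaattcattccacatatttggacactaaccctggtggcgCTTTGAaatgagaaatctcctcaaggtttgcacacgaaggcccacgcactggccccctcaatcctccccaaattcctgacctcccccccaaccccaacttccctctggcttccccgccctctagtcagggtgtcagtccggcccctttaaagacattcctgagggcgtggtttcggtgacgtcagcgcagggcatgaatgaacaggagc
Ephb4: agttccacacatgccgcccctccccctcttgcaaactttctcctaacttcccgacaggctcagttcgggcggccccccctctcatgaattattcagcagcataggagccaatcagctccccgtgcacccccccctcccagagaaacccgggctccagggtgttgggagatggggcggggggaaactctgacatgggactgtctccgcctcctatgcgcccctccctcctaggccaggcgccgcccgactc
Efna4: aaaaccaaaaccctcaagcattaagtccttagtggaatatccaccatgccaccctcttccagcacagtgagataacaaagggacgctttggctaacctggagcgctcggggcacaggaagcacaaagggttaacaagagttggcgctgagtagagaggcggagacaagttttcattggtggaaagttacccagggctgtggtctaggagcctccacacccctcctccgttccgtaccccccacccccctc
Efnb2: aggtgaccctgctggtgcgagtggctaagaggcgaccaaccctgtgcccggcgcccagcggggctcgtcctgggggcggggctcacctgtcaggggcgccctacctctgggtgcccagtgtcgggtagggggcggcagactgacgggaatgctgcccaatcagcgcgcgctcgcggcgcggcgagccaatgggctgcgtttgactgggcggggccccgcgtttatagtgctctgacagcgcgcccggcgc
The window of Efnb2 held 27 CG dinucleotides, that of Ephb4 12, that of Epha2 9 and that of Efna4 7, beside a median of 6 over all windows. The windows of Ephb2 and Ephb3 held no match. The Ephb2 window lies wholly and the Ephb3 window partly inside another model of the same gene.

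Of the 12 other Eph and ephrin genes, 10 were in the table and 2 were tested. Epha1, a receptor of epithelia, fell from 33.6 ± 1.08 to 20.0 ± 1.38 FPKM (SD, n = 3 each), a log2(FPKM + 1) difference of -0.72 with an SE of 0.0550 and an adjusted p of 5.0e-06 (limma). It moved opposite to Epha2, and 236 of its exonic bases (6.01%) are shared with Zyx on the opposite strand. Efna3, which lies between Efna1 and Efna4 on chromosome 3, was covered by 121, 84 and 113 fragments in the controls and by 405, 384 and 427 in the MMK-1 libraries. It rose from 0.680 ± 0.126 to 2.69 ± 0.106 FPKM (SD, n = 3 each), by 1.14 with an SE of 0.0711 and an adjusted p of 1.5e-06 (limma), and like Ephb3 it reached the filter only through its level with MMK-1. Of its exonic bases, 344 (14.1%) are shared with Gm15998 on the opposite strand. Its ratio of means was 3.96, beside 4.18 for Efna4 and 1.22 for Efna1. Efna2 was covered by 14, 18 and 2 fragments in the controls and by 20, 29 and 33 in the MMK-1 libraries, and stayed below the filter.

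Of the 32 genes of EphB and EphA forward signalling (adaptors, kinases, exchange factors and small GTPases), 29 were tested, 16 rose and 4 fell, with a median log2(FPKM + 1) difference of 0.28 beside 0.13 for all genes, of which 48.5% rose and 24.7% fell. With the correction for GC content 14 rose and 8 fell, beside 39.8% and 34.2% of all genes. Those with the largest rise were Tiam1, an exchange factor for Rac, at 0.83 (0.705 FPKM in controls and 2.03 with MMK-1, a ratio of 2.89), Rock1, a kinase that acts on the actin cytoskeleton, at 0.81, and Yes1, a Src family kinase, at 0.61. Tiam1 reached the filter only through its level with MMK-1, like Ephb3 and Efna3. Rock1 was at 21.6, 20.0 and 12.6 FPKM in the MMK-1 libraries and Yes1 at 30.0, 29.3 and 18.4, so both were far lower in MMK-1 replicate 3 than in the other MMK-1 libraries. Those with the largest fall were Vav2 at -0.48, Ngef, which encodes the Eph-binding exchange factor ephexin-1, at -0.45, and Pak1 at -0.33.

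Of the 9 genes of ephrin-B reverse signalling, 7 were tested, 0 rose and 1 fell, with a median of -0.07, and with an unadjusted p under 0.05 or with limma-voom it was also 0 and 1. Of all genes tested, 48.5% rose and 24.7% fell. The gene that fell was Pard3, a polarity scaffold, at -0.14 with an adjusted p of 0.0231 (limma). Of these 7 genes, 0 fell without Control replicate 2, 0 without Control replicate 3 and 0 without MMK-1 replicate 1, and 2 fell without MMK-1 replicate 3. With upper-quartile scaling 0 rose and 4 fell, beside 41.7% and 31.2% of all genes. Of the 11 proteases and junction partners, 10 were tested, 4 rose and 2 fell, with a median near 0, beside 48.5% and 24.7% of all genes, and upper-quartile scaling gave 4 and 5, beside 41.7% and 31.2%. Adam10, a protease that cleaves ephrins, rose by 0.54, the junction scaffold gene Afdn by 0.44 and Adam17 by 0.34, while Ncstn, which encodes nicastrin, fell by 0.18.

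Of the 11 genes of the Wnt and TCF list, 8 were tested, 7 rose and 0 fell, with a median of 0.98. With an unadjusted p under 0.05 or with limma-voom the counts were also 7 and 0. The list mixes regulators of EphB with target genes of Wnt, so its median does not speak for the regulators alone. It also shares Lgr5 with the stem cell markers. The shares of all genes were 48.5% and 24.7%. The largest differences were those of the target genes Lgr5 at 2.86, Axin2 at 1.80 and Sox9 at 1.18. Ctnnb1, which encodes β-catenin, was at 0.0063 with an adjusted p of 0.875 (limma), and at -0.08 with upper-quartile scaling, where it passed the threshold. Tcf7l2, which encodes a TCF, rose by 0.53 with an adjusted p of 3.6e-05 (limma). By ratio of means, Lgr5 was at 10.4, Axin2 at 4.12 and Sox9 at 2.55, beside 6.27 for Ephb3 and 2.12 for Ephb2.

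**Figure D4:**
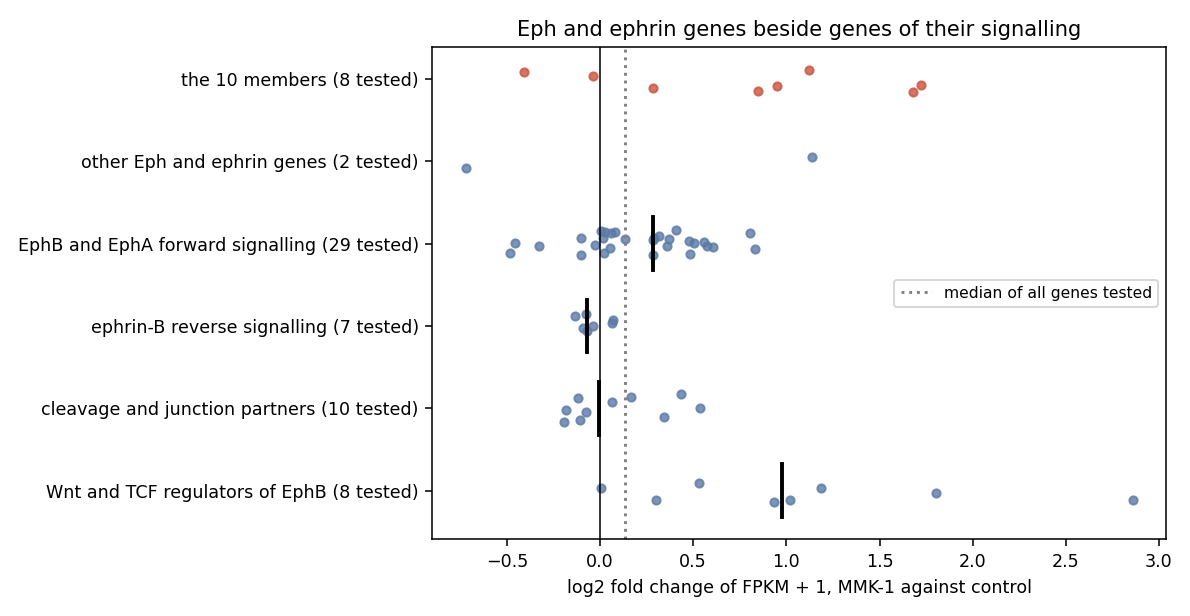
Difference of log2(FPKM + 1) between MMK-1 and control (x axis) for each tested gene of the members and of the lists of related genes. Points are genes, black bars are list medians, and the dotted line is the median of all genes tested, 0.13. The Wnt and TCF list, labelled as regulators but holding target genes as well, has a median of 0.98. Forward signalling genes have a median of 0.28 and reverse signalling genes -0.07.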

How the data were processed

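The authors deposited FPKM per gene for 6 libraries with gene annotation. Whole fragments were recovered from the steps of the FPKM values, and 99.7% of each library total fell on listed genes. The submitters' processing notes name HISAT2, HTSeq and mm10 without a role, and also list R 3.2.0 and DESeq2. No further scaling between libraries is stated. Gene coordinates and promoter windows are from RefSeq on GRCm38, strands and exons from GENCODE.

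The members and lists were chosen with earlier results of these data known. Genes with a mean of at least 1 FPKM over the 6 libraries were tested with limma 3.58.1 in R 4.3.3 (limma-trend, no replicate block) on log2(FPKM + 1) over all 10551 genes, with Benjamini-Hochberg adjustment and a threshold of 0.05. Fold changes on this scale understate the change of low genes. Permutation tests were exact and two-sided. The genes named were all members, the 3 tested genes with the largest called difference in each direction of each pathway list, every other Eph or ephrin gene with a mean of at least 1 FPKM, and the most abundant gene of each cell type list. Of the genes this rule takes, 1 is not reported here. Efna2, Ctnnb1, Tcf7l2, Kdr, Ada and the guidance genes of the closing section fall outside this rule and were chosen after their values were seen.

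Alternatives were upper-quartile scaling over the tested genes, a pseudocount of 0.1, every gene above 0, limma-voom on fragments, a replicate block, a correction for GC content (loess, span 0.3, 98.6% of genes tested), both together, and leaving out each library. 2 more alternatives, with low genes included, were chosen after seeing the data. Of the fits, only limma on log2(FPKM + 1) was also run on simulated libraries, and its outcome there is not given. Python 3.11.15 (numpy 2.4.6, scipy 1.17.1, pandas 2.3.3, matplotlib 3.10.9) was used for the rest. Counts of fragments cover counting error only.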

Additional observations from a re-analysis of the deposited data

How the results depend on the processing

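Among the members, 6 were called higher in every alternative limited to the tested genes, and 7, with Epha4 added, in the 3 that included low genes. On the lower side 1 was called in each alternative except that 2 were called with upper-quartile scaling, with the GC correction and with the replicate block and GC correction together. The added call was Efnb1, at -0.12 with the scaling and -0.13 with either GC fit. Members at least 2-fold higher numbered 3 on the log2(FPKM + 1) scale, beside 3.39% of all genes. They numbered 5 with a pseudocount of 0.1, beside 6.41%, and 5 with limma-voom, beside 6.89%. In each of the added fits with low genes, where Epha4 entered, they numbered 6. The shares of all genes there were 5.31% with the pseudocount and 10.9% with limma-voom. Other Eph and ephrin genes called higher numbered 2 with every gene above 0 and 2 in limma-voom with low genes. Forward signalling genes called lower numbered 8 with the GC correction, and 3 to 6 without 1 library. Reverse signalling genes called lower numbered 4 with upper-quartile scaling, 3 with the GC correction and 3 with the block added to it, and 0 to 2 without 1 library. Cleavage and junction genes called lower numbered 5 in each of these 3 fits and 2 to 4 without 1 library, and 1 Wnt regulator was called lower with upper-quartile scaling. The log2 difference of the ratio of Ephb2 and Ephb3 to Efnb1 and Efnb2 was 1.57, between 1.54 and 1.60 without 1 library, and 1.93 as the median of single ratios. The causes of these shifts were not tested.

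Replicate numbers did not pair the libraries: deviations of libraries with the same number correlated at 0.025, -0.040 and 0.028. With the replicate block alone, 6 members were higher and 1 was lower, and no call of a member changed. Depth limited Ephb6, and the filter of 1 FPKM left Epha4 outside the test.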

Other observations

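Guidance genes of other families were called at shares near those of all genes tested, of which 48.5% rose and 24.7% fell. Of the 45 semaphorins, plexins, neuropilins, netrins, Slits, Robos and their kin, 17 were tested, 10 rose and 5 fell, with a median log2(FPKM + 1) difference of 0.24 beside 0.13 for all genes. Sema3c, a secreted semaphorin, rose by 0.88, the netrin receptor gene Unc5b by 0.71 and the plexin gene Plxna1 by 0.56. Sema4g, Sema4a and Sema3b were lower, at -0.61, -0.58 and -0.53. Among the 88 tested genes of the KEGG axon guidance pathway without Eph and ephrin genes, 50 rose and 19 fell, and 43 and 25 with upper-quartile scaling, where 41.7% and 31.2% of all genes did. In that pathway 3 genes rose at least 2-fold on the log2(FPKM + 1) scale, beside 3.39% of all genes. L1cam, a neural adhesion molecule, was at 4.69, 4.59 and 4.73 FPKM in controls and 12.6, 12.6 and 13.7 with MMK-1. Pik3r3, a regulatory subunit of PI 3-kinase, was at 1.45, 1.42 and 1.27 FPKM and 5.24, 4.88 and 4.75. Ppp3cb, a calcineurin subunit, was at 11.4, 11.2 and 11.0 FPKM and 35.0, 33.5 and 19.8, with MMK-1 replicate 3 far below the other MMK-1 libraries.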
